A study of Mus musculus with 6 samples.

Results

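The miR-26 family was followed in nephron progenitor cells, the self-renewing cells of the outer embryonic kidney that give rise to nephrons, in embryos of stage E14.5 and in newborns (P0). The members were the 3 mature miRNAs mmu-miR-26a-5p, mmu-miR-26b-5p and mmu-miR-26b-3p (written without the species prefix from here on), picked by name from the 1034 distinct mature miRNAs of the deposited table. The study compared 2 stages of CD1 mice with 3 samples each, and every sample was a pool of kidney cells from 1 litter. No genetic change or treatment was listed for either stage, so the groups differ by age alone in their labels. Cells were released from the kidney cortex by a brief enzymatic digestion and captured on magnetic beads with an antibody against the integrin Itga8. The labelled cell type could not be checked against the usual progenitor marker genes, because the table holds miRNAs and not mRNAs.

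miRNAs are short RNAs that guide Argonaute proteins to messenger RNAs, mainly through the seed near their 5′ end. A hairpin precursor yields a 5p and a 3p arm, of which the more abundant is called the guide strand and the other the passenger strand. miR-26 hairpins lie in introns of the Ctdsp genes, which encode small phosphatases that act on the carboxy-terminal domain of RNA polymerase II, and the miRNA and its host are transcribed from the same strand. In other systems miR-26a is known for restraining cell division, for targeting the histone methyltransferase Ezh2, and for being repressed by the transcription factor Myc.

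The mature sequences are shown because both guide strands share the seed that selects targets, while the passenger strands do not all share theirs. Capitals mark the seed, bases 2 to 8 from the 5′ end. The sequences are those of RefSeq (GRCm38.p6), and all 5 arms of the family in the table matched by name and position. The passenger strands of miR-26a were not members and are shown because each comes from a single locus.
miR-26a-5p: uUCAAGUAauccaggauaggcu
miR-26b-5p: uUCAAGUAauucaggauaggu
miR-26b-3p: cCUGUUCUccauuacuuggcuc
miR-26a-1-3p: cCUAUUCUugguuacuugcacg
miR-26a-2-3p: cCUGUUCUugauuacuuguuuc
Counted from the 5′ end, miR-26b-5p differed from miR-26a-5p by 2 substitutions, C11U and C21U, and was 21 rather than 22 bases long. The GC content was 40.9% for miR-26a-5p and 33.3% for miR-26b-5p. The seed of both guides, UCAAGUA, occurred in no other miRNA of the table that had a RefSeq sequence. The passenger strands miR-26b-3p and miR-26a-2-3p shared the seed CUGUUCU and differed by 4 substitutions, whereas miR-26a-1-3p carried the seed CUAUUCU and differed from miR-26b-3p at 8 positions.

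The hairpins are shown because miR-26a-5p has 2 genomic sources and miR-26b has 1. Capitals mark the 5p and 3p arms.
Mir26a-1: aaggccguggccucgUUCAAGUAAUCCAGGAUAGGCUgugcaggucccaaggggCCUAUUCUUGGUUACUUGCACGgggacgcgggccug
Mir26a-2: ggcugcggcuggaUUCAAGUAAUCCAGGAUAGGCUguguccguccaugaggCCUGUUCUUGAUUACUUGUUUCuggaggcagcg
Mir26b: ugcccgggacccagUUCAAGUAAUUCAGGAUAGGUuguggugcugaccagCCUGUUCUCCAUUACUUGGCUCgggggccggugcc
Mir26a-1 (chr9:119031796-119031885, plus strand, GRCm38) lay in intron 5 of Ctdspl, and Mir26b (chr1:74394310-74394394, plus strand) in intron 4 of Ctdsp1. Mir26a-2 (chr10:126995530-126995613, plus strand) lay in intron 5 of Ctdsp2, with 2 other annotated Ctdsp2 transcripts that began at the last base of the hairpin. The table listed miR-26a-5p at both of its loci, with reads that differed between the rows by 0.0159% to 0.377% per library. Reads of miR-26a-5p therefore do not tell the loci apart, and the Ctdsp2 row, which had the higher total, was used.

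Summed over all 1104 rows, the libraries held 2649506 to 34934526 recovered reads, and both the smallest and the next smallest came from E14.5. Names listed at several loci enter that sum at each locus. Shares of reads given below rest on the most abundant row of each name. The deposited unit was TPM, reads divided by length and scaled to the same total of 1000000 in every library. The median log2 fold change of the 670 miRNAs tested, those with a mean of at least 1 TPM, was −1.20 for TPM as deposited and −0.17 once median-of-ratios scaling was applied, which divides each library by a typical miRNA's ratio to its average. Changes are therefore given under both scalings and can be read against these medians. P0 replicate 1 stood apart, correlating across miRNAs more closely with E14.5 (mean r 0.948) than with its own stage (mean r 0.908), and the results for the family and the counts for the lists are given with and without it. That library was singled out for its resemblance to E14.5, so p-values without it are too small and are given only to show how far a result rests on it. Nothing in the labels says whether it differed in its preparation. Values per library are listed below in the order of replicates 1, 2 and 3.

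At E14.5 miR-26a-5p and miR-26b-5p had levels that did not differ beyond their spread and were among the most abundant miRNAs. At P0 their TPM was highest of all in replicate 1 and below every E14.5 library in replicates 2 and 3, miR-26b-5p more so than miR-26a-5p. Together the guides took 5.15%, 5.12% and 4.60% of the reads before birth (E14.5) and 7.00%, 1.43% and 1.39% at P0. None of the 3 members was called at an adjusted p below 0.05 in limma over all 6 libraries in TPM, where 34.2% of the tested miRNAs were called (32.8% lower and 1.34% higher at P0). The same held after median-of-ratios scaling, where 10.9% were called (5.67% higher and 5.22% lower). At an unadjusted p below 0.05, limma counted 1 of the 3 in TPM, miR-26b-5p, and 0 of the 3 after median-of-ratios scaling, and limma-voom on recovered reads also 0 of the 3. Over all 670 tested miRNAs the corresponding counts at an unadjusted p below 0.05 were 328, 228 and 191, so the members' counts do not stand out from the background. The authors' deposited table called 0 of the 3 members, and 10.4% of all names.

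**Figure D1:**
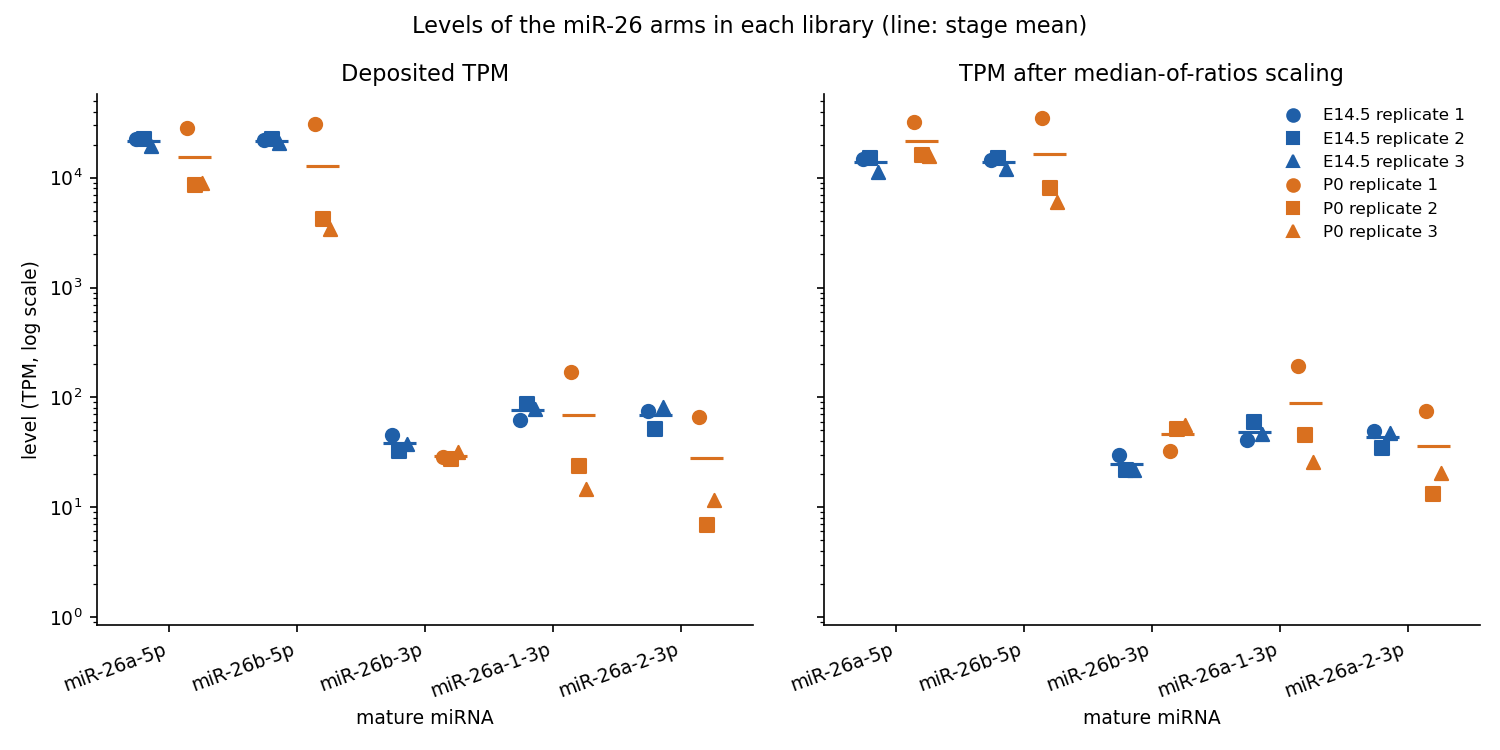
Level of the 5 miR-26 arms in each library on a log axis, as deposited TPM (left) and as TPM after median-of-ratios scaling (right); blue is E14.5, orange is P0, marker shapes are replicates and lines are stage means (n = 3). Both guides lie between 19273 and 22531 TPM at E14.5, and at P0 replicate 1 is above and replicates 2 and 3 are below them in TPM.

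miR-26a-5p, the guide made by Mir26a-1 and Mir26a-2, stood at 22531, 22386 and 19273 TPM across the E14.5 litters and at 28453, 8538 and 8995 TPM across those of P0. In TPM the stages overlapped, because 1 P0 library was above all E14.5 libraries and 2 were below them. The mean with its SD (n = 3 per stage) was 21396 ± 1840 TPM for E14.5 against 15329 ± 11368 for P0. The limma log2 fold change, P0 over E14.5, was −0.72 (SE 0.50, 95% interval −1.81 to 0.38, adjusted p = 0.267), which is 0.48 above the median of all tested miRNAs. After median-of-ratios scaling the E14.5 litters stood at 14903, 15236 and 11241 and the P0 litters at 32442, 16171 and 15863. On that scale the stages did not overlap and all P0 libraries were higher, and 35.4% of the tested miRNAs had no overlap, in one direction or the other. The log2 fold change was then 0.57 (SE 0.44, 95% interval −0.42 to 1.55, limma adjusted p = 0.386). The direction of miR-26a-5p thus depended on the scaling. Its rank among all miRNAs was 10, 12 and 15 before birth (E14.5) against 9, 19 and 18 at P0.

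With P0 replicate 1 left out, the log2 fold change of miR-26a-5p in TPM was −1.28 (SE 0.24, limma adjusted p = 0.000841), a fall close to the median of all miRNAs in that fit, −1.40. In that fit 61.0% of the tested miRNAs were called, 53.0% as lower and 7.98% as higher at P0. On the median-of-ratios scale the change was 0.18 without that library (95% interval −0.42 to 0.77, limma adjusted p = 0.593). For miR-26a-5p the call in TPM therefore rested on whether P0 replicate 1 was included, and no call was made with median-of-ratios scaling either way.

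miR-26b-5p, the guide of the Ctdsp1 intron, stood at 22134, 22356 and 20624 TPM across the E14.5 litters, a narrow spread. Across those of P0 it stood at 30886, 4240 and 3397 TPM, so its highest and its lowest levels were both from P0. The mean with its SD (n = 3 per stage) was 21705 ± 943 TPM for E14.5 against 12841 ± 15633 for P0, a coefficient of variation of 4.34% and 122% respectively. The log2 fold change was −1.51 (SE 0.69, 95% interval −3.01 to −0.0035, limma adjusted p = 0.102) in TPM. After median-of-ratios scaling the E14.5 litters stood at 14641, 15216 and 12029 and the P0 litters at 35217, 8031 and 5991, which again overlapped. The log2 fold change on that scale was −0.22 (SE 0.63, 95% interval −1.61 to 1.17, limma adjusted p = 0.839), close to the median of all miRNAs. Its rank was 12, 13 and 12 before birth (E14.5) against 8, 27 and 30 at P0.

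When P0 replicate 1, the library with the highest miR-26b-5p level, was left out, the estimate for miR-26b-5p passed the threshold as lower under both scalings. By limma its TPM change was −2.51 (SE 0.25, adjusted p = 1.29e-05) and its scaled change −1.05 (SE 0.27, 95% interval −1.67 to −0.44, adjusted p = 0.0130), both log2. These estimates lay 1.12 and 0.75 below the medians of all miRNAs in the same fits. With median-of-ratios scaling 48.2% of the tested miRNAs were called without that library, 21.6% as higher and 26.6% as lower, so a call is common there.

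miR-26b-3p, the passenger strand of the same hairpin, was 2 to 3 orders of magnitude less abundant. Across the E14.5 litters it stood at 45.4, 32.2 and 37.2 TPM, from 120, 760 and 190 reads. Across those of P0 it stood at 28.4, 27.3 and 31.7 TPM, from 986, 606 and 682 reads. In TPM all P0 libraries lay below all E14.5 libraries, a lack of overlap seen in 49.6% of the tested miRNAs. In TPM P0 replicate 1 lay between the other P0 libraries for this strand, unlike for the guides. The mean with its SD (n = 3 per stage) was 38.3 ± 6.66 TPM for E14.5 against 29.1 ± 2.33 for P0, with a log2 fold change of −0.37 (SE 0.54, 95% interval −1.55 to 0.81, limma adjusted p = 0.588). Once scaled by median of ratios, the E14.5 litters stood at 30.0, 21.9 and 21.7 and the P0 litters at 32.3, 51.7 and 56.0, with no overlap in the opposite direction. A lack of overlap on this scale, in one direction or the other, was seen in 35.4% of the tested miRNAs. On that scale P0 replicate 1 lay next to the highest E14.5 library and away from the other P0 libraries. The log2 fold change was then 0.88 (SE 0.50, 95% interval −0.24 to 1.99, limma adjusted p = 0.238), which lay 1.05 above the median of all miRNAs. Without P0 replicate 1 it was −0.36 in TPM (limma adjusted p = 0.464), and with scaling 1.06 (SE 0.39, 95% interval 0.18 to 1.94, limma adjusted p = 0.0483), past the threshold only on the latter scale. In that scaled fit 48.2% of all tested miRNAs were called, 21.6% as higher.

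**Figure D2:**
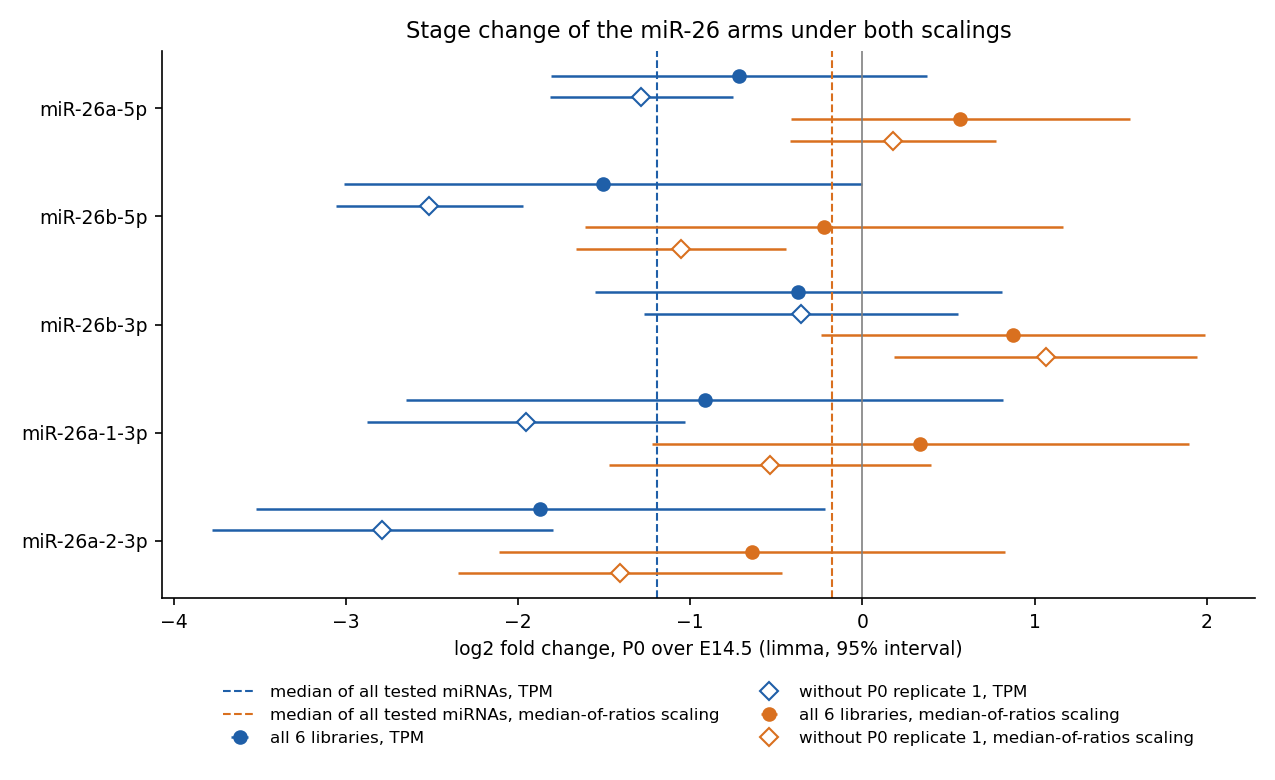
Log2 fold change, P0 over E14.5, of the 5 miR-26 arms with 95% limma intervals, in TPM (blue) and after median-of-ratios scaling (orange), for all 6 libraries (filled circles) and without P0 replicate 1 (open diamonds). Dashed lines are the medians of all tested miRNAs over all 6 libraries, −1.20 and −0.17. The medians without P0 replicate 1, −1.40 and −0.31, are not drawn. Over all 6 libraries every miR-26 member has an adjusted p above 0.05.

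Each passenger strand of miR-26a comes from a single locus, unlike the shared guide. How far such a strand follows the output of its locus was not tested. miR-26a-1-3p, from the Ctdspl intron, stood at 61.7, 87.1 and 78.9 TPM across the E14.5 litters and at 169, 23.8 and 14.6 TPM across those of P0. miR-26a-2-3p, from the Ctdsp2 intron, stood at 75.0, 51.0 and 81.2 TPM across the E14.5 litters and at 66.2, 6.93 and 11.5 TPM across those of P0. In both, P0 replicates 2 and 3 lay below all E14.5 libraries, as for the guides. P0 replicate 1 lay above them all for miR-26a-1-3p and within their range for miR-26a-2-3p. In TPM limma gave log2 changes of −0.92 for miR-26a-1-3p (SE 0.80, adjusted p = 0.365) and −1.87 for miR-26a-2-3p (SE 0.76, adjusted p = 0.0695). The scaled values were 0.34 (limma adjusted p = 0.764) and −0.64 (limma adjusted p = 0.509). Leaving out that library, miR-26a-2-3p had a TPM change of −2.79 (limma adjusted p = 0.000314) and a scaled change of −1.41 (limma adjusted p = 0.0230), a fall in both. miR-26a-1-3p fell by 1.95 in TPM without that library (limma adjusted p = 0.00208), and had −0.54 with scaling (limma adjusted p = 0.297). In the fits without that library, 53.0% of all tested miRNAs were called lower in TPM and 26.6% after scaling. The ratio of miR-26a-1-3p to miR-26a-2-3p was 0.823, 1.71 and 0.971 across the E14.5 litters and 2.56, 3.44 and 1.27 across those of P0, so the stages overlapped.

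Ratios within a library do not depend on how libraries are scaled to each other, and 2 of them were tested. The first asked whether both guides changed alike. The TPM ratio of miR-26a-5p to miR-26b-5p was 1.02, 1.00 and 0.934 across the E14.5 litters and 0.921, 2.01 and 2.65 across those of P0. At E14.5 the guides were thus level within their spread, and in P0 replicates 2 and 3 miR-26a-5p was the higher. The mean log2 ratio with its SD (n = 3 per stage) was −0.02 ± 0.07 for E14.5 against 0.77 ± 0.79 for P0, a difference of 0.79 (exact two-sided permutation p = 0.4, adjusted over the 2 ratios 0.4). The smallest p that this permutation test allows with 3 libraries against 3 is 0.1, so the test could not reach 0.05. Without P0 replicate 1 the difference was 1.23, with the stages apart (exact two-sided permutation p = 0.1, the smallest possible).

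The other ratio compared the arms of the miR-26b hairpin. miR-26b-5p exceeded miR-26b-3p by 487-fold, 693-fold and 554-fold across the E14.5 litters. Across those of P0 the excess was 1089-fold, 155-fold and 107-fold. P0 replicate 1 lay above all E14.5 libraries and the other P0 libraries below them all. In shares, miR-26b-3p made up 0.215% (95% Wilson interval 0.180 to 0.257), 0.151% (0.141 to 0.162) and 0.189% (0.164 to 0.218) of the reads of both arms in the E14.5 libraries. In the P0 libraries it made up 0.0963% (0.0905 to 0.103), 0.671% (0.620 to 0.726) and 0.972% (0.902 to 1.05). These intervals cover counting error only, not the spread between litters. The mean log2 ratio of guide to passenger with its SD (n = 3 per stage) was 9.16 ± 0.26 for E14.5 against 8.04 ± 1.80 for P0, a difference of −1.12 (exact two-sided permutation p = 0.4, adjusted over the 2 ratios 0.4). Without P0 replicate 1 it was −2.15 (exact two-sided permutation p = 0.1, the smallest possible).

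**Figure D3:**
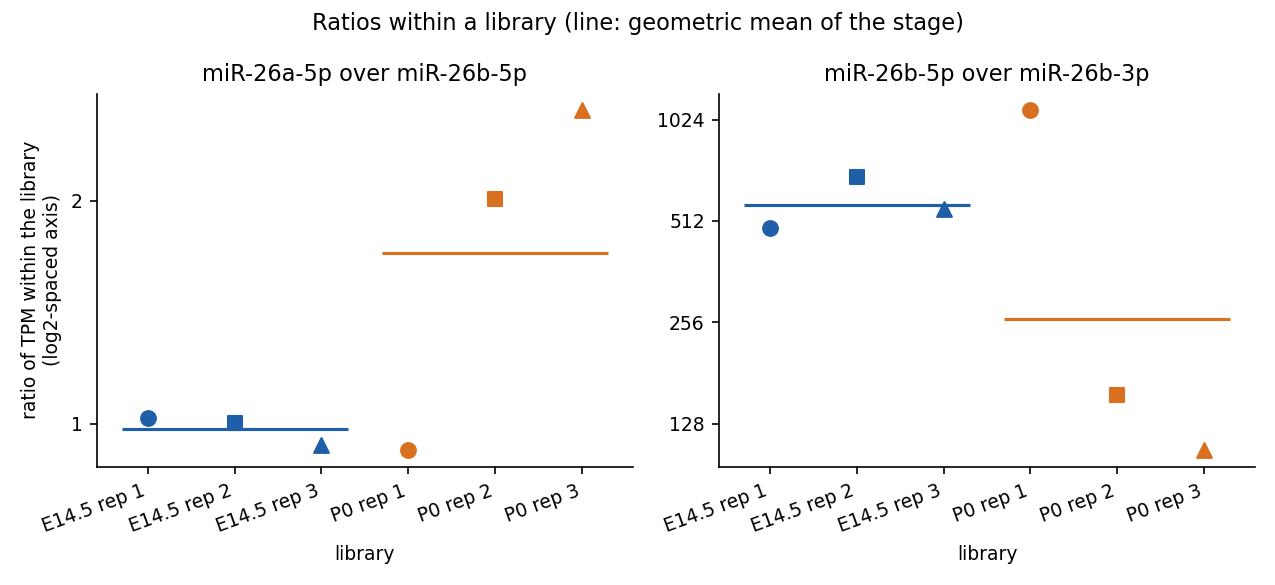
TPM ratios within each library on log2-spaced axes, miR-26a-5p over miR-26b-5p (left) and miR-26b-5p over miR-26b-3p (right); blue is E14.5, orange is P0, and lines are geometric means of 3 libraries. P0 replicate 1 has ratios of 0.921 and 1089, on the opposite side of the E14.5 libraries from P0 replicates 2 and 3.

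By level per length, the order of the arms at E14.5 was miR-26b-5p and miR-26a-5p, which did not differ beyond their spread, then the miR-26a passenger strands, which also overlapped, and miR-26b-3p last. In P0 replicates 2 and 3 the order was miR-26a-5p, miR-26b-5p, miR-26b-3p, miR-26a-1-3p and miR-26a-2-3p, so miR-26b-3p moved above both miR-26a passenger strands. The passenger strands of miR-26a together made up 0.603%, 0.613% and 0.824% of the miR-26a TPM before birth (E14.5) against 0.820%, 0.359% and 0.289% at P0. For miR-26a the passenger share in P0 replicates 2 and 3 was therefore below every E14.5 library, and for miR-26b it was above every E14.5 library. That contrast between the hairpins was not tested.

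The authors' deposited table gave log2 fold changes of 0.35 with a standard error of 0.58 for miR-26a-5p, −0.53 with 0.65 for miR-26b-5p and 1.03 with 0.66 for miR-26b-3p. The adjusted p-values in the authors' deposited table were 0.712, 0.593 and 0.286 respectively.

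The miRNAs whose levels were most like those of the guides over the 6 libraries were ranked among 431 others with a mean of at least 10 TPM, by Pearson's r of log2(TPM + 1). These values describe the same 6 libraries, share their depth and scaling, and carry no test. For miR-26a-5p the nearest were miR-26b-5p (r = 0.988), miR-130a-3p (0.979) and miR-23b-3p (0.979). For miR-26b-5p they were miR-23a-3p (0.995), miR-130a-3p (0.992) and miR-19b-3p (0.991), with miR-26a-5p in place 6. miR-23a-3p stood at 960, 863 and 924 TPM across the E14.5 litters and at 1067, 175 and 134 TPM across those of P0, the same order of libraries at P0 as miR-26b-5p. After median-of-ratios scaling the nearest to miR-26a-5p were miR-378a-5p (0.988), miR-152-3p (0.964) and miR-10b-3p (0.955), and those to miR-26b-5p were miR-23a-3p (0.991), miR-130a-3p (0.986) and miR-335-5p (0.982). The correlation between the guides was 0.667 on that scale. miR-26b-3p was far from its own guide, at 0.385 in TPM and −0.554 after scaling.

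Other miRNAs known as repressed by Myc were taken as a list of 19, of which all were tested. The list included let-7, miR-15, miR-16, miR-29 and miR-30 members. In TPM 5 of the 19 fell, 0 rose and 14 were not called, with a median log2 fold change of −1.21 against −1.20 for all tested miRNAs. After median-of-ratios scaling 5 of the 19 rose, 0 fell and 14 were not called, with a median of 0.08 against −0.17. The share of calls over all miRNAs was 34.2% in TPM and 10.9% after scaling, against 5 of 19 in both. The scaling shifts all miRNAs of a library together. Over all tested miRNAs the calls were 32.8% lower and 1.34% higher in TPM, and 5.22% lower and 5.67% higher after scaling. Whether the list departs from these shares was not tested. Leaving out P0 replicate 1, 12 of the 19 fell and 0 rose in TPM, where 53.0% of all tested miRNAs fell and 7.98% rose. On the median-of-ratios scale 8 of the 19 fell and 5 rose without it, where 26.6% of all fell and 21.6% rose.

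The Myc-repressed miRNAs that fell in TPM were miR-30b-5p, miR-30c-5p, miR-15a-5p, miR-146a-5p and miR-22-3p. miR-30c-5p, of the kidney-abundant miR-30 family, stood at 12296, 6203 and 10476 TPM across the E14.5 litters and at 6169, 556 and 562 TPM across those of P0. P0 replicate 1 was again the highest P0 library, just below the lowest E14.5 library. By limma its TPM change was −2.90 (SE 0.80, adjusted p = 0.0165), and its scaled change −1.61 (SE 0.71, adjusted p = 0.141). Those of miR-30b-5p, miR-15a-5p, miR-146a-5p and miR-22-3p were −2.95, −2.18, −2.12 and −2.10 in TPM (limma adjusted p of 0.0307, 0.0354, 0.0148 and 0.0171). Their scaled changes of −1.68, −0.90, −0.85 and −0.83 were not called (limma adjusted p of 0.188, 0.312, 0.216 and 0.221). The list members that rose after median-of-ratios scaling were miR-29a-3p, miR-30d-5p, let-7f-5p, miR-16-5p and let-7a-5p, with changes of 2.39, 1.84, 1.80, 1.68 and 1.56 (limma adjusted p of 0.0311, 0.0311, 0.0311, 0.0401 and 0.0432). Their TPM changes of 1.15, 0.56, 0.52, 0.40 and 0.27 were not called (limma adjusted p of 0.141, 0.340, 0.302, 0.389 and 0.583). miR-29a-3p, known for targeting collagen genes, stood at 25.0, 38.0 and 23.1 TPM across the E14.5 litters and at 114, 44.6 and 49.5 TPM across those of P0.

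**Figure D4:**
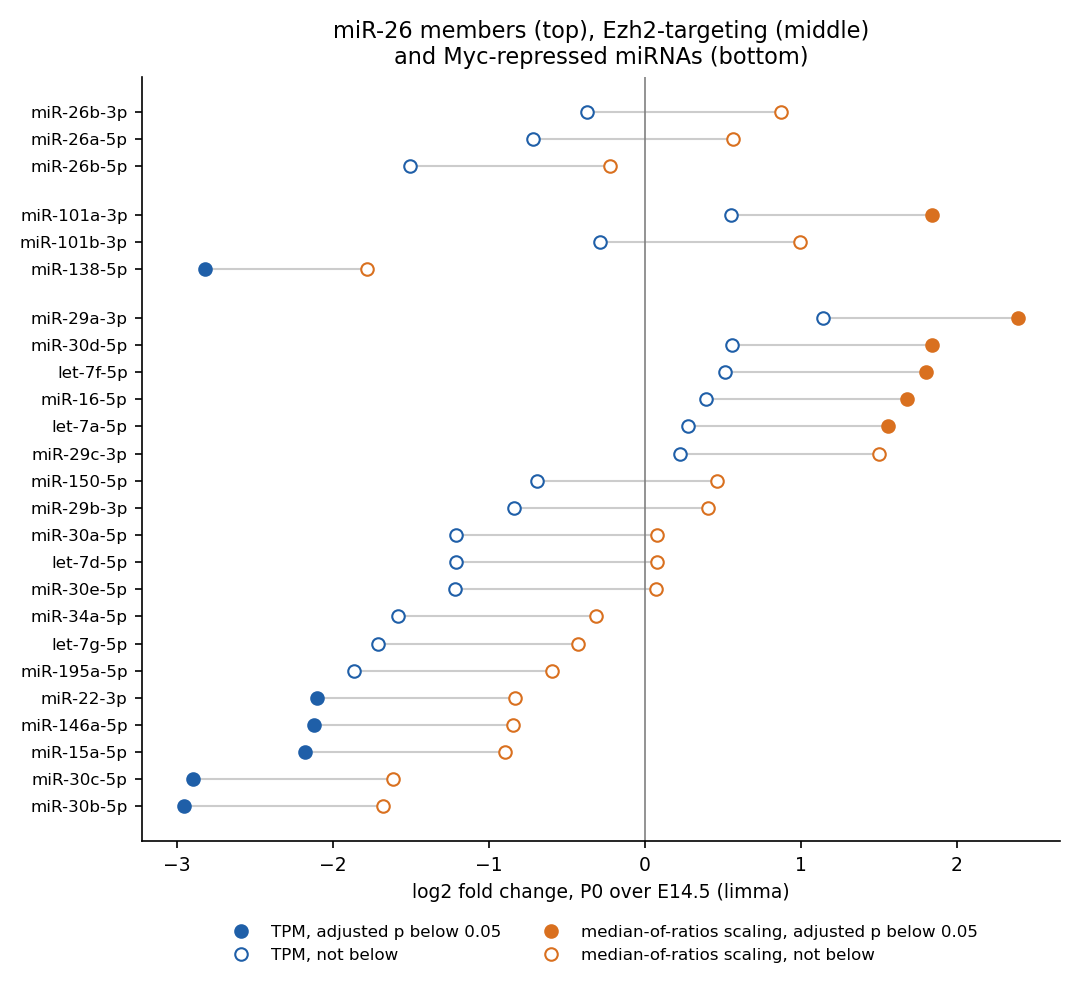
Log2 fold change, P0 over E14.5, of the miR-26 members, 3 Ezh2-targeting and 19 Myc-repressed miRNAs, in TPM (blue) and after median-of-ratios scaling (orange); filled points have a limma adjusted p below 0.05. In TPM 5 of 19 Myc-repressed miRNAs are filled on the lower side, and after scaling 5 of 19 on the higher side.

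Among the 3 other miRNAs known to target Ezh2, miR-138-5p fell in TPM. It stood at 24.9, 17.2 and 21.5 TPM across the E14.5 litters and at 2.77, 0.816 and 3.38 TPM across those of P0, a limma log2 fold change of −2.82 (SE 0.59, adjusted p = 0.00605), and of −1.78 with median-of-ratios scaling (adjusted p = 0.0686). miR-101a-3p rose by 1.84 (SE 0.44, limma adjusted p = 0.0332) on the median-of-ratios scale, and had 0.56 in TPM (limma adjusted p = 0.417). miR-101b-3p was not called, with −0.29 in TPM and 1.00 after scaling (limma adjusted p of 0.648 and 0.110). Leaving out P0 replicate 1, 1 of the 3 was called in TPM, miR-138-5p as lower, and 3 of 3 with scaling, miR-101a-3p and miR-101b-3p as higher and miR-138-5p as lower. Of all tested miRNAs 61.0% and 48.2% were called in these fits, and 34.2% and 10.9% over all libraries.

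Some marker miRNAs of other cell types were called between the stages, and their part in the miR-26 results was not tested. Over all libraries the counts below compare with 32.8% of all tested miRNAs lower in TPM, and 5.22% lower and 5.67% higher after scaling. In the fits without P0 replicate 1 they compare with 53.0% lower and 7.98% higher in TPM, and 26.6% lower and 21.6% higher after scaling. The 2 endothelial miR-126a strands summed to 26608 to 44921 TPM at E14.5 and 5634 to 8158 at P0, and both fell in TPM and 1 of 2 after scaling. The 5 epithelial miR-200 family miRNAs summed to 4122 to 23183 TPM at E14.5 and 500.2 to 1542 at P0, and 5 of 5 fell in TPM and 3 of 5 after scaling. The 6 stromal and smooth muscle miRNAs summed to 84962 to 101473 TPM at E14.5 and 33590 to 46336 at P0, with 3 of 6 lower in TPM and no call by limma after scaling. Without P0 replicate 1, 6 of 6 were lower in TPM and 2 of 6 after scaling, the latter near the 26.6% of all miRNAs. The 4 erythroid miRNAs summed to 242 to 417 TPM at E14.5 and 127 to 189 at P0, with no call by limma after scaling and 1 of 4 lower in TPM, miR-451a. Another of them, miR-486a-5p, did not share that direction, at 33.7, 61.9 and 73.0 TPM across the E14.5 litters and 37.4, 138 and 146 TPM across those of P0. It was not called over all libraries (limma adjusted p of 0.363 in TPM and 0.0845 scaled). Without P0 replicate 1, miR-486a-5p was called higher and 2 of 4 erythroid miRNAs lower under both scalings. The 4 leukocyte miRNAs summed to 785 to 1523 TPM at E14.5 and 503 to 743 at P0, with 1 of 4 lower in TPM and 1 of 4 higher after scaling. Without P0 replicate 1, 3 of 4 were lower in TPM and 1 of 4 was higher after scaling. The endothelial and epithelial counts were the same without that library. None of these markers was at 0 in any library. In these bulk samples, fewer cells of a type and less of a miRNA per cell cannot be told apart.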

How the data were processed

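Small RNA libraries from 6 litter pools, 3 per stage, were compared. The authors deposited 1 table of 1104 rows with TPM per library, and per the file headers a mean normalised signal (baseMean), log2 fold changes, a test score, p-values and adjusted p-values. The submitters' processing notes name featureCounts, DESeq2 1.26.0 and mm10. The aligner and the use of molecular tags are not given in the sources used here.

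Each TPM value times end minus start was a whole multiple of 1 step per library (tolerance 0.001) in 100% of values, and these multiples are the recovered reads. Their normalised mean equalled the deposited baseMean signal within a relative 4.75e-15. A name listed at several loci was represented by its most abundant row. The lowest read number of a miR-26 strand was 120, and 3 reads correspond to at most 1.19 TPM at these strands. The Wilson intervals of read shares cover counting error only, and the limma intervals rest on the spread between libraries.

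The main model was limma 3.58.1 in R 4.3.3, using its variance trend, on log2(TPM + 1) of the 670 miRNAs that averaged 1 TPM or more, all 6 samples, stage as the only term, Benjamini-Hochberg adjustment, calls below 0.05. On this scale the change of low miRNAs is understated. Median-of-ratios factors came from 546 miRNAs above 0 in every library and ranged from 1.47 to 1.71 at E14.5 and from 0.528 to 0.877 at P0. Single miRNAs named were the members, the other miR-26a arms, listed miRNAs called under either scaling, and the 3 most like each guide. miR-101b-3p, miR-451a and miR-486a-5p fall outside this rule and were named after their values were seen. The members and lists were chosen with earlier results of these data known. Other scalings, filters, a smaller pseudocount, limma-voom, a replicate block and fits without each library were tried. The labels tell the samples of a stage apart by number only. Gene context came from GENCODE M21 and sequences from RefSeq.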

Additional observations from a re-analysis of the deposited data

How the results depend on the processing

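In TPM, miR-26a-5p had a log2 fold change of −0.72 and miR-26b-3p of −0.37, and both turned positive with median-of-ratios scaling (0.57 and 0.88), upper-quartile scaling (0.70 and 1.01) and limma-voom on recovered reads (0.58 and 0.93). The same 3 settings gave 0.34, 0.47 and 0.35 for miR-26a-1-3p. Filtering (none, or 10 TPM), the smaller pseudocount (0.1), summing rows and leaving out the most abundant miRNA changed no direction or call of the 3 members. Leaving out each library in turn gave −1.28 to −0.42 for miR-26a-5p, −2.51 to −0.92 for miR-26b-5p and −0.49 to −0.25 for miR-26b-3p in TPM, and the first 2 were called without P0 replicate 1. With median-of-ratios scaling the ranges were 0.18 to 0.79, −1.05 to 0.30 and 0.75 to 1.06. miR-26b-5p turned positive there without P0 replicate 2 (0.12) or 3 (0.30), and miR-26a-1-3p ranged from −0.54 (without P0 replicate 1) to 0.97. In TPM miR-26a-1-3p ranged from −1.95 to −0.23 and miR-26a-2-3p from −2.79 to −1.25, and with median-of-ratios scaling the latter from −1.41 to −0.08. The difference in log2 ratio ranged from 0.47 to 1.23 for miR-26a-5p over miR-26b-5p and from −2.15 to −0.48 for miR-26b-5p over miR-26b-3p. The cause of these shifts was not tested.

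The count of all miRNAs called was 229 in TPM, 73 with median-of-ratios scaling, 63 with upper-quartile scaling and 28 with limma-voom. It ranged from 72 to 420 in TPM and from 0 to 332 with median-of-ratios scaling when 1 library was left out: in TPM it was 420 without P0 replicate 1, 72 without E14.5 replicate 3, 111 without E14.5 replicate 1, 115 without P0 replicate 2 and 134 without P0 replicate 3. With median-of-ratios scaling it was 332 without P0 replicate 1, 7 and 2 without E14.5 replicate 2 and P0 replicate 3, and 0 without E14.5 replicate 1, E14.5 replicate 3 or P0 replicate 2. Each of the limma fits with 0 calls had 140 to 150 miRNAs at an unadjusted p below 0.05. Counts of listed and marker miRNAs without P0 replicate 1 were chosen after seeing the data. Same-numbered samples had correlations of their deviations from the stage mean of 0.193, 0.183 and 0.0423, so the numbers were not taken to pair them, and the third P0 library was nearer to the second E14.5 library (0.077). A replicate block gave 247 calls in TPM and 67 with median-of-ratios scaling. The block changed no call of the 3 members (limma adjusted p of 0.222 for miR-26a-5p, 0.0619 for miR-26b-5p and 0.605 for miR-26b-3p in TPM), and miR-26a-2-3p passed the threshold with it in TPM (0.0475). Read numbers of the passenger strands ranged from 120 to 5882, so their counting error is larger than that of the guides.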
